A study of Mus musculus with 11 samples.

Results

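The comparison set the cell lines labelled TAZ-S89A against those labelled YAP-S127A. Members were defined by label: the 5 libraries with the mutation TAZ-S89A and the 3 with YAP-S127A, 8 of the 11 libraries of the series. The comparison itself was chosen with earlier results of these data known. The remaining 3 libraries carry a further YAP mutant, YAP-S5A in the labels, and entered no result here other than an alternative fit. All lines came from mouse liver tumours, and the RNA was polyadenylated RNA read as counts per gene. No further treatment, time, strain or age of any group is given in the sources used here, nor is the promoter that drove either mutant. Whether libraries of 1 group stem from separate tumours, lines or cultures is not stated in the labels. Every p-value therefore rests on the spread among the deposited libraries alone, and that spread may be technical. The effect of the mutant cannot be told apart from the identity of the lines.

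YAP and TAZ are related transcriptional coactivators at the end of the Hippo pathway. When the pathway is active, its LATS kinases phosphorylate both proteins, which are then held in the cytoplasm or degraded. S127 of YAP and S89 of TAZ are corresponding sites of that phosphorylation, and replacing the serine by alanine lets the protein stay in the nucleus, where it binds TEAD factors on DNA. In liver, forced YAP activity enlarges the organ and gives rise to tumours, and both proteins are known for inducing genes of growth, adhesion and matrix.

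Yap1 and Wwtr1, the gene of TAZ, were read as a check of the labels. Yap1 stood at 56.1, 51.9, 67.4, 87.6 and 83 CPM in TAZ-S89A and 217, 203 and 187 CPM in YAP-S127A, so it was lower in each TAZ-S89A library (log2 fold change -1.55, SE 0.19, adjusted p 3.33e-05). Wwtr1 stood at 70.1, 68.7, 88.6, 102 and 97.8 CPM in TAZ-S89A and 68.5, 67.5 and 69 CPM in YAP-S127A and was not called (log2 fold change 0.32, SE 0.16, adjusted p 0.109). Whether reads of an introduced mutant count toward these genes is not known, so they do not check which mutant a line carries. The tissue label is liver, and of 30 hepatocyte markers 13 were tested, 10 lower and 2 higher in TAZ-S89A. Together these markers made up 41.4 to 70.2 CPM in TAZ-S89A and 186 to 192 CPM in YAP-S127A, and Alb, albumin, had 1 read over TAZ-S89A and 112 over YAP-S127A. Total counts ran from 20071144 to 46243462 per library, the smallest being TAZ-S89A replicates 5 and 4. Those libraries carry IDs of a second series in the labels, and the chi-square per degree of freedom between them was 2.08 over genes, a measure that grows with depth. TAZ-S89A replicates 1 and 2 gave 5.98 and the other pairs within that group 110.05 to 236.35, against 6.72 to 35.73 within YAP-S127A. The relative spread beyond counting error was 0.246 in TAZ-S89A and 0.0892 in YAP-S127A.

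Of 17423 genes tested, 9929 (57%) were called at an adjusted p under 0.05 with edgeR's quasi-likelihood test. In the TAZ-S89A lines 4765 (27.3%) were higher and 5164 (29.6%) were lower. A log2 fold change of at least 1 in size was reached by 5526 (31.7%), and among these the lower genes were the more numerous, 3292 (18.9%) against 2234 (12.8%). The largest differences leaned further that way, with 1789 genes (10.3%) differing by at least 3 on the log2 scale, 1268 (7.28%) lower and 521 (2.99%) higher. The libraries of the groups did not overlap for 10204 genes (58.6%). Because 57% of all genes were called, each count below is read against these shares. Of the 7494 genes not called, 1618 had a 95% interval within 0.5 either way on the log2 scale, and 1797 had an interval reaching 1. Fold changes are TAZ-S89A over YAP-S127A throughout, levels are CPM (counts scaled to a common library size) on the TMM scale, and values are listed in the order of the replicates.

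**Figure D1:**
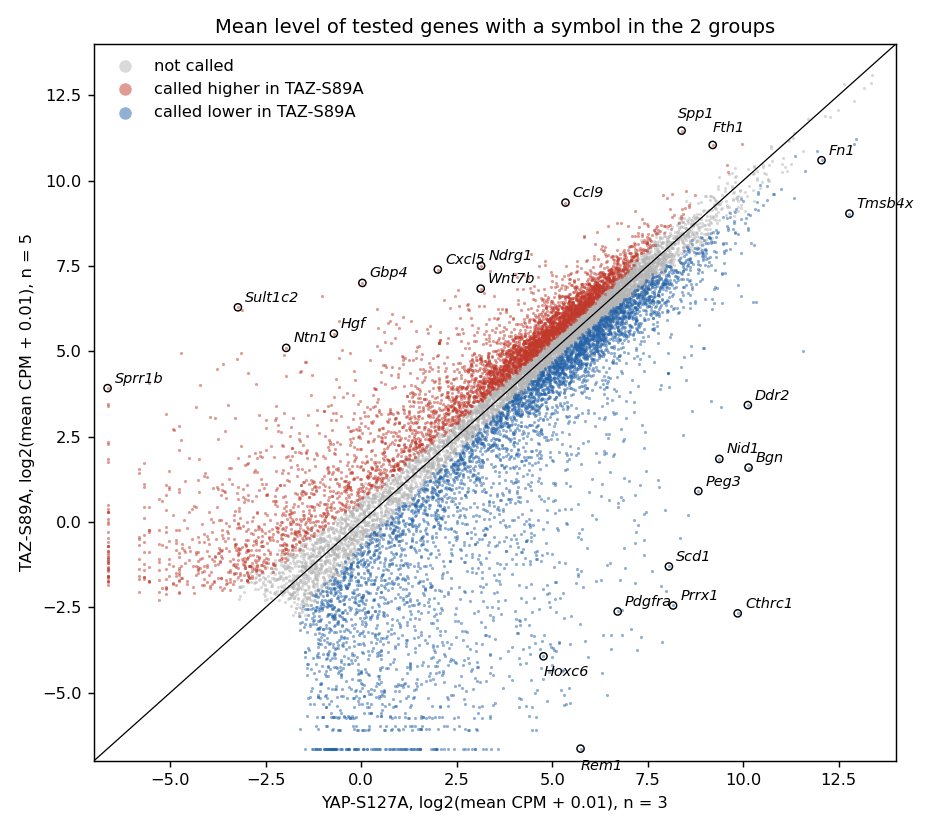
Mean level of each tested gene with a symbol in YAP-S127A (x axis, 3 libraries) and TAZ-S89A (y axis, 5 libraries), both as log2 of mean CPM plus 0.01. Red and blue points were called higher and lower in TAZ-S89A, the line marks equal levels, and circled genes are described in the text. Genes near the lower edge, such as Rem1, had few or no counts in TAZ-S89A.

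Among the genes named here, the extremes by edgeR's fitted log2 fold change were Sprr1b (12.01) and Rem1 (-13.83). Sprr1b encodes a cornified envelope precursor of squamous epithelium, and Rem1 a small GTPase of the RGK family that limits calcium channels. With no count in 1 group such fitted values depend on the method. Under limma-voom they were 10.06 for Sprr1b and -11.73 for Rem1, and Cthrc1 lay lower at -13.05. Sprr1b (chromosome 3, 92436808 to 92438817, GRCm38) stood at 13.3, 13.4, 18.8, 16.8 and 13.3 CPM in TAZ-S89A and had no count in YAP-S127A, so it was at least 539-fold higher taking 3 counts summed over YAP-S127A as the floor. Rem1 (chromosome 2, 152627008 to 152635191) had no count in TAZ-S89A and 52.8, 52.3 and 55.3 CPM in YAP-S127A, at least 2943-fold lower in TAZ-S89A. The RefSeq promoter windows of Sprr1b and Rem1, 250 bases before to 50 after the start on GRCm38, are shown because these genes marked the ends of the edgeR order. The Sprr1b window is chr3:92438730-92439029 on the minus strand and the Rem1 window chr2:152626758-152627057 on the plus strand. Capitals mark GGAATG or its reverse complement CATTCC, the letters of the MCAT element that TEAD factors bind.
Sprr1b: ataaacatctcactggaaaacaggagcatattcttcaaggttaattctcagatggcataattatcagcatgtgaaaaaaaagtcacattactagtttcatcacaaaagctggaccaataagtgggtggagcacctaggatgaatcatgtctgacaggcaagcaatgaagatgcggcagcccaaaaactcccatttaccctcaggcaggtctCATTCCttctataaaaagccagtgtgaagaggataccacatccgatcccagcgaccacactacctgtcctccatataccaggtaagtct
Rem1: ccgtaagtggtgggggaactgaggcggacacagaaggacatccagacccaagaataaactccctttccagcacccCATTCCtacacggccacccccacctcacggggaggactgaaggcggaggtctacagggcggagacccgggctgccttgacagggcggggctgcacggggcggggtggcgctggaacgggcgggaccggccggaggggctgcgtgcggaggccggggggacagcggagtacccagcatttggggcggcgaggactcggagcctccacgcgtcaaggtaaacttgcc
The letters lay at 39 to 34 bases before the transcript start on which the Sprr1b window was built and at 175 to 170 bases before that of Rem1. The Sprr1b gene model reaches further upstream than that start, and its outer end falls within the letters. Both windows held them, and so did 14.7% of all 32851 windows of this length. The match is a description of the letters and shows no binding.

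A further gene near the lower extreme was Dnm3os, a long noncoding RNA that carries the precursors of miR-199a and miR-214, miRNAs known from mesenchymal cells. Dnm3os stood at 0.12, 0.0228, 0.0888, 0 and 0.0888 CPM in TAZ-S89A and 157, 145 and 143 CPM in YAP-S127A (log2 fold change -11.05, SE 0.29, adjusted p 3.76e-10). The 11 reads of the 5 TAZ-S89A libraries faced 16137 in the 3 YAP-S127A libraries. Mir199a-2 and Mir214, which lie inside Dnm3os and share its reads, had 0 counts in TAZ-S89A and 226 and 683 in YAP-S127A. Both also overlap the tested gene Dnm3, and with the strand setting not known, reads of Dnm3 may be counted here. Mature miRNAs have no poly(A) tail and were not measured. Their RefSeq sequences are shown, from chromosome 1 on the plus strand of GRCm38, because Dnm3os is their source in mesenchymal cells. Capitals mark the seed, bases 2 to 8.
mmu-miR-199a-5p: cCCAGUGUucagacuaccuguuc
mmu-miR-199a-3p: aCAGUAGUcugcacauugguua
mmu-miR-214-5p: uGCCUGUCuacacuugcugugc
mmu-miR-214-3p: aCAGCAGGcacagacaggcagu
The arms lie at chr1:162217844-162217866, chr1:162217883-162217904, chr1:162223397-162223418 and chr1:162223438-162223459. No pair of these arms shares a seed.

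Gene lists covering signalling, matrix, identity and metabolism were counted against the shares of all genes. Beside the hepatocyte, mesothelial and collagen lists, those that leaned to lower levels in TAZ-S89A included the HOX genes, regulators and targets of ERK signalling, smooth muscle contractile genes, imprinted genes, p53 targets, oncofetal genes, proteases, TGF-beta ligands and the non-collagen matrix. Lists that leaned to higher levels included mitosis, DNA replication, fatty acid, cholesterol, Notch, axon guidance and chemokine genes. A member that passed the low-count filter through its higher group alone had to differ, so these counts describe the lists and support nothing by themselves.

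**Figure D2:**
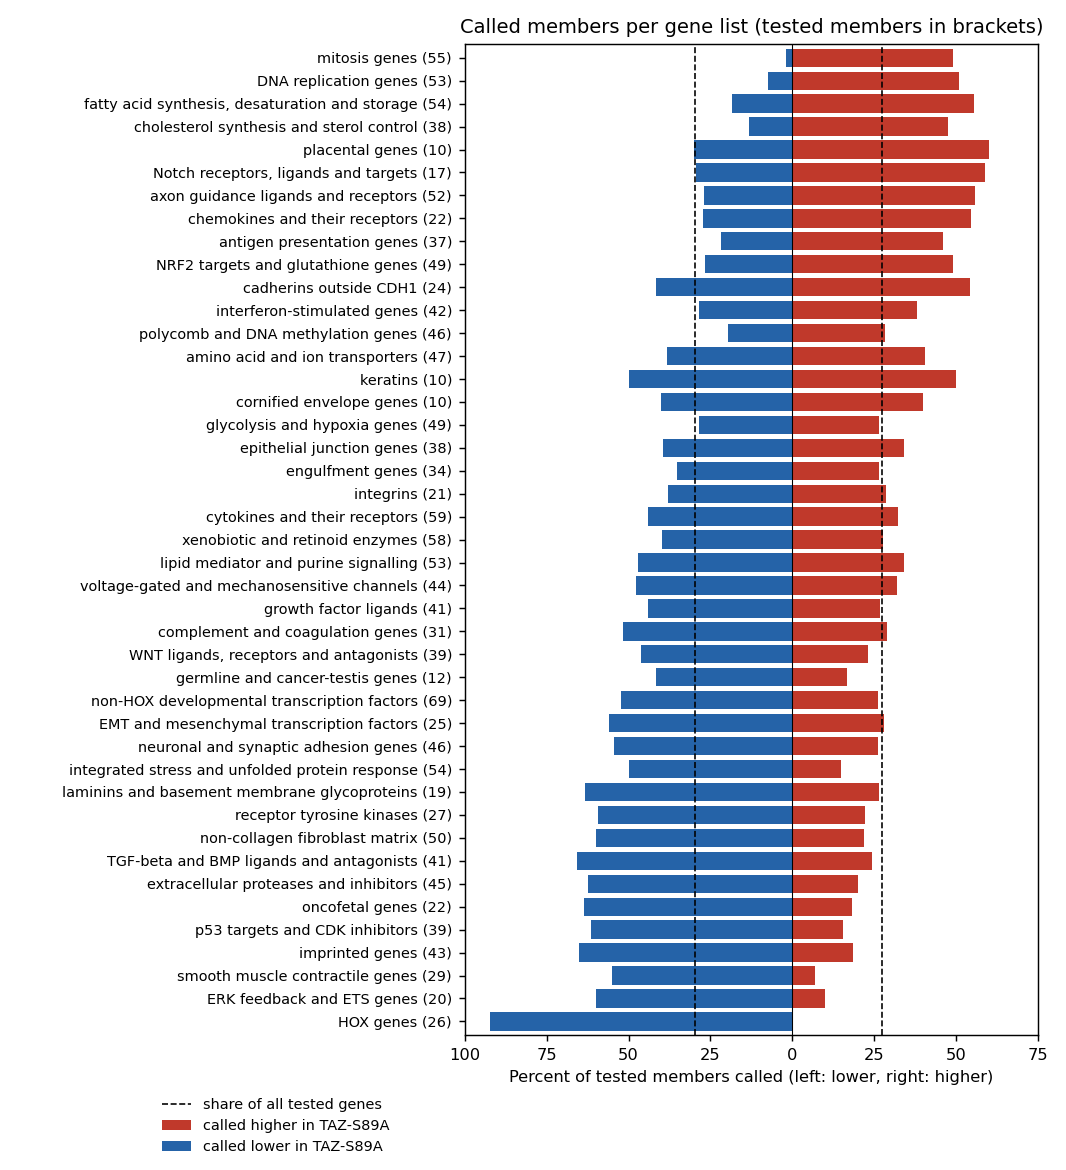
Percent of tested members of each gene list called lower (left, blue) and higher (right, red) in TAZ-S89A, with the number of tested members in brackets; dashed lines mark the shares of all tested genes, 29.6% and 27.3%. The HOX list ran furthest to the left, with 24 of 26 members lower, and mitosis genes stood at the other end, with 27 of 55 higher and 1 lower.

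The non-collagen fibroblast matrix was lower in the TAZ-S89A lines in most of its members. Of 60 listed genes 50 were tested, and 30 were lower and 11 higher, with a median log2 fold change of -1.53 against -0.01 over all tested genes. Cthrc1, a secreted glycoprotein of activated fibroblasts, stood at 0.167, 0.296, 0.267, 0 and 0 CPM in TAZ-S89A and 846, 907 and 1027 CPM in YAP-S127A (log2 fold change -12.39, SE 0.53, adjusted p 7.45e-09). It was thus nearly absent from TAZ-S89A, with 29 reads in all against 99761 in YAP-S127A. Bgn encodes biglycan, a small proteoglycan that binds collagen and TGF-beta, and stood at 2.89, 2.1, 2.58, 4.04 and 3.37 CPM in TAZ-S89A and 1158, 1198 and 1032 CPM in YAP-S127A (log2 fold change -8.57, SE 0.27, adjusted p 9.14e-10). Fn1, fibronectin, was abundant in both groups at 1709, 1532, 1149, 1730 and 1613 CPM in TAZ-S89A and 4434, 4393 and 3907 CPM in YAP-S127A (log2 fold change -1.46, SE 0.24, adjusted p 0.000347). Fibronectin showed a smaller difference than Bgn, and its groups did not overlap either. Ltbp2, a latent TGF-beta binding protein of elastic fibres (log2 fold change -3.91, SE 0.17, adjusted p 7.47e-09), and Loxl2, which cross-links collagen and elastin (log2 fold change -5.81, SE 0.15, adjusted p 3.36e-10), were lower too. Stellate and portal fibroblast markers summed to 1150 to 1334 CPM in TAZ-S89A and 1616 to 1868 CPM in YAP-S127A. Of 22 such markers 10 were tested, 3 higher and 6 lower. Fbln2, which made up most of these sums, was not called, at means of 920 CPM in TAZ-S89A and 1135 CPM in YAP-S127A. The lower markers were Pdgfra, at means of 0.152 CPM in TAZ-S89A and 105 CPM in YAP-S127A, Hhip at 1.54 and 33.4 CPM, Dcn at 0.611 and 7.11 CPM, Cd34 at 2.46 and 6.36 CPM, Pdgfrb at 277 and 488 CPM, and Thy1, with 0 reads against 194. Reln, Gli1 and Cygb were higher, each at a mean of at most 2.02 CPM. Without TAZ-S89A replicates 4 and 5 the log2 fold changes of Hhip, Dcn and Reln were -6.35, -4.73 and 2.32, against -4.58, -3.69 and 3.24 in all libraries. Lrat and Lum had no count in either group. The part of these markers' cells in the matrix result was not tested, and in bulk libraries fewer cells of a kind and less RNA per cell cannot be told apart.

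Basement membrane genes went both ways, most of them lower. Of 19 tested laminins and associated glycoproteins, of 23 listed, 12 were lower and 5 higher in TAZ-S89A (median log2 fold change -1.04). Nid1, nidogen, which links laminin to the collagen network, stood at 2.73, 2.78, 2.69, 4.64 and 5.06 CPM in TAZ-S89A and 682, 691 and 619 CPM in YAP-S127A (log2 fold change -7.55, SE 0.28, adjusted p 2.79e-09). Lamb1, a beta chain found in many laminins, stood at 23.8, 24.3, 18, 38.8 and 38.6 CPM in TAZ-S89A and 366, 356 and 323 CPM in YAP-S127A (log2 fold change -3.61, SE 0.25, adjusted p 3.88e-07). Both were lower in each TAZ-S89A library. Lama5, the alpha chain of epithelial laminins, went the other way at 895, 838, 594, 755 and 775 CPM in TAZ-S89A and 298, 281 and 259 CPM in YAP-S127A (log2 fold change 1.46, SE 0.21, adjusted p 0.000132). Its lowest TAZ-S89A library, at 594 CPM, lay above its highest YAP-S127A library, at 298 CPM.

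Extracellular proteases and their inhibitors were mostly lower as well, 28 of 45 tested (50 listed), with 9 higher and a median of -1.14. Among the inhibitors, Timp3, a matrix-bound inhibitor of metalloproteases, stood at 69.8, 63.9, 87.4, 109 and 103 CPM in TAZ-S89A and 1238, 1271 and 1192 CPM in YAP-S127A (log2 fold change -3.83, SE 0.23, adjusted p 1.11e-07). Serpinf1, which encodes the antiangiogenic serpin PEDF, stood at 0.789, 0.433, 0.948, 0.694 and 0.577 CPM in TAZ-S89A and 155, 175 and 177 CPM in YAP-S127A (log2 fold change -7.93, SE 0.22, adjusted p 4.05e-10). Timp3 was thus retained at a lower level in TAZ-S89A, while Serpinf1 stayed below 1 CPM in each of its libraries.

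Smooth muscle contractile genes were lower in 16 of 29 tested members (32 listed) and higher in 2, with a median of -0.66. Acta2, smooth muscle actin, stood at 55.9, 50.5, 102, 32.3 and 32.7 CPM in TAZ-S89A and 419, 478 and 484 CPM in YAP-S127A (log2 fold change -3.07, SE 0.34, adjusted p 1.6e-05). Tagln, the actin-binding protein transgelin, stood at 104, 107, 176, 24.7 and 21 CPM in TAZ-S89A and 1060, 1269 and 1566 CPM in YAP-S127A (log2 fold change -3.91, SE 0.61, adjusted p 0.000231). The TAZ-S89A libraries differed among themselves in both genes, replicates 4 and 5 being the lowest and replicate 3 the highest, and without replicates 4 and 5 the log2 fold change of Tagln was -3.32. Tpm2, beta tropomyosin, differed more, at 1.63, 1.19, 1.6, 1.26 and 0.666 CPM in TAZ-S89A and 222, 246 and 269 CPM in YAP-S127A (log2 fold change -7.57, SE 0.24, adjusted p 9.53e-10). Tmsb4x, which encodes the actin-sequestering peptide thymosin beta 4, had the largest drop in mean deposited nRPKM, a level scaled by gene length, among the genes named. Its deposited nRPKM averaged 435 over TAZ-S89A and 5930 over YAP-S127A. It stood at 661, 714, 608, 299 and 331 CPM in TAZ-S89A and 6890, 7337 and 6912 CPM in YAP-S127A (log2 fold change -3.75, SE 0.35, adjusted p 3.85e-06).

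Most receptor tyrosine kinases that were called were lower in TAZ-S89A, while the receptor and the ligand of the HGF pair were both higher. Of 27 tested receptor kinases (33 listed), 16 were lower and 6 higher, with a median of -0.85. Pdgfra, the PDGF receptor alpha chain, stood at 0.12, 0.137, 0.237, 0.0868 and 0.178 CPM in TAZ-S89A and 108, 110 and 98.6 CPM in YAP-S127A (log2 fold change -9.41, SE 0.20, adjusted p 1.68e-10). Ddr2, a receptor for fibrillar collagen, stood at 6.1, 5.7, 5.33, 18 and 18.6 CPM in TAZ-S89A and 1127, 1175 and 1043 CPM in YAP-S127A (log2 fold change -6.71, SE 0.50, adjusted p 6.5e-07), and at a log2 fold change of -7.59 without TAZ-S89A replicates 4 and 5, its higher libraries in that group. Mertk, a receptor for apoptotic cells, was reduced to 7 reads in TAZ-S89A against 3467 (log2 fold change -9.43, SE 0.23, adjusted p 3.36e-10). Receptors found at moderate levels in both groups differed less: the log2 fold change was -1.86 for Fgfr1, -1.80 for Igf1r and -1.19 for Egfr, each with a standard error of 0.13 to 0.16. The receptors with higher levels in TAZ-S89A included Met and Ror2. Met, the HGF receptor, stood at 192, 175, 200, 299 and 288 CPM in TAZ-S89A and 86.1, 83.1 and 80.5 CPM in YAP-S127A (log2 fold change 1.47, SE 0.22, adjusted p 0.000167), and Ror2, a WNT5A receptor, at 6.43, 6.72, 6.69, 10 and 11 CPM in TAZ-S89A and 1.09, 0.848 and 0.956 CPM in YAP-S127A (log2 fold change 3.06, SE 0.26, adjusted p 1.92e-06).

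Among growth factors, 18 of 41 tested were lower and 11 higher (44 listed, median -0.40). Hgf, the ligand of Met, stood at 54.7, 51.7, 52, 34.2 and 36 CPM in TAZ-S89A and 0.696, 0.509 and 0.59 CPM in YAP-S127A (log2 fold change 6.23, SE 0.26, adjusted p 7.15e-09). Gdnf, a neurotrophic factor that signals through Ret, stood at 71.9, 67.2, 56.5, 61 and 61.2 CPM in TAZ-S89A and 2.14, 2.07 and 2.14 CPM in YAP-S127A (log2 fold change 4.91, SE 0.16, adjusted p 8.02e-10). The groups did not overlap for either gene, and every YAP-S127A library stood at or below 2.14 CPM for Gdnf and 0.696 CPM for Hgf. Hgf and Met were thus both higher in the same libraries, and neither the proteins nor receptor activity were measured.

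Feedback regulators of ERK signalling and ETS factors were lower in 12 of 20 tested members, higher in 2, with a median of -1.12. These genes are induced by ERK activity and many of them restrain it. Dusp6, a phosphatase that inactivates ERK, stood at 21.3, 22.5, 30.8, 33.8 and 36 CPM in TAZ-S89A and 149, 142 and 153 CPM in YAP-S127A (log2 fold change -2.36, SE 0.18, adjusted p 9.08e-07). Etv4, an ETS factor downstream of FGF signalling, stood at 15.6, 17.1, 16, 28.3 and 29.8 CPM in TAZ-S89A and 173, 175 and 155 CPM in YAP-S127A (log2 fold change -2.98, SE 0.23, adjusted p 1.02e-06). Spry4, an inhibitor of receptor kinase signalling, stayed at or below 0.521 CPM in TAZ-S89A against 32, 30.5 and 25.1 CPM in YAP-S127A (log2 fold change -6.98, SE 0.43, adjusted p 1.53e-07), and its log2 fold change was -8.01 without TAZ-S89A replicates 4 and 5. Leaving those libraries out raised the number lower to 16.

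**Figure D3:**
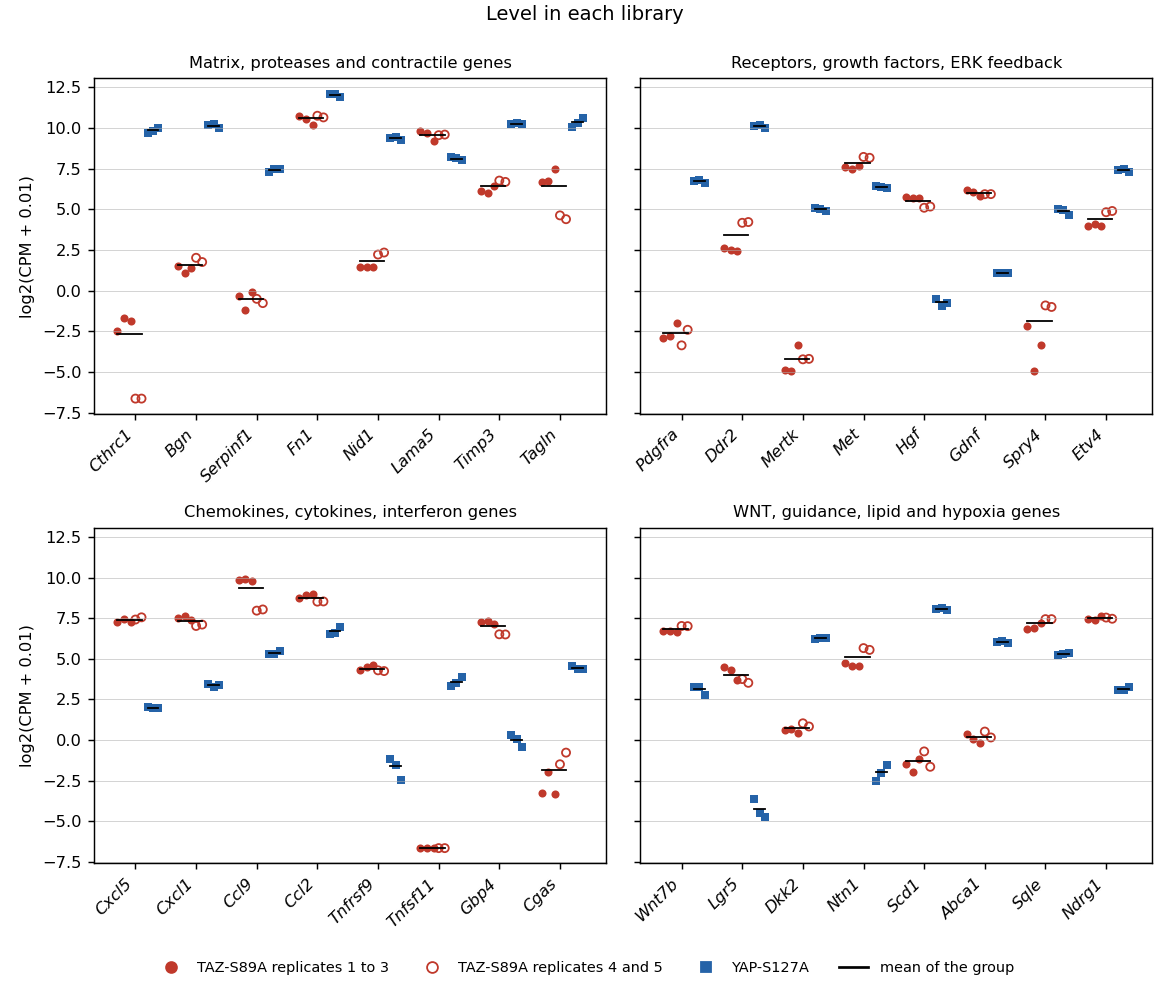
Level of selected genes in each library, as log2 of CPM plus 0.01, for TAZ-S89A replicates 1 to 3 (filled red circles), TAZ-S89A replicates 4 and 5 (open red circles) and YAP-S127A (blue squares); black lines mark the group means. The groups did not overlap for any of the genes drawn, which were chosen by their values, nor for 58.6% of all tested genes. Ccl9, Ddr2, Tagln and Ntn1, among others, show replicates 4 and 5 apart from replicates 1 to 3.

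Ligands and antagonists of the TGF-beta and BMP family were lower in 27 of 41 tested members (46 listed) and higher in 10, with a median of -0.81. Bmp4, a BMP ligand, stood at 5.02, 5.58, 5.21, 7.2 and 6.66 CPM in TAZ-S89A and 86, 85.1 and 85.2 CPM in YAP-S127A (log2 fold change -3.85, SE 0.14, adjusted p 2.64e-09). Fstl3, a secreted antagonist of activin, stood at 0.526, 0.433, 0.267, 0.391 and 0.488 CPM in TAZ-S89A and 39.5, 43.2 and 38 CPM in YAP-S127A (log2 fold change -6.56, SE 0.18, adjusted p 4.05e-10), and Eng, the coreceptor endoglin, at 6.15, 5.97, 8.26, 4.69 and 5.73 CPM in TAZ-S89A and 179, 180 and 158 CPM in YAP-S127A (log2 fold change -4.80, SE 0.18, adjusted p 2.57e-09). Inhbb, the activin beta B subunit, was higher at 6.72, 5.81, 6.9, 6.94 and 7.72 CPM in TAZ-S89A and 0.255, 0.271 and 0.281 CPM in YAP-S127A (log2 fold change 4.65, SE 0.21, adjusted p 1.12e-08). An activin subunit was thus higher and an activin antagonist lower in the same libraries. Eng is also known from endothelium, whose markers summed to 29.9 to 35.7 CPM in TAZ-S89A and 94.8 to 107 CPM in YAP-S127A. Of those 20 markers 8 were tested, 2 higher and 4 lower. The lower markers were Flt1, at means of 8.18 CPM in TAZ-S89A and 75.1 CPM in YAP-S127A, Esam at 0.566 and 5.11 CPM, Kdr at 0.106 and 1.29 CPM, and Emcn, with 0 reads against 843. The higher markers were Stab1, at 17.6 and 4.83 CPM, and Plvap, at 1.5 and 0.822 CPM. The call of Plvap was lost when TAZ-S89A replicate 1 or 2 or YAP-S127A replicate 1 or 3 was left out. It was also lost when the close pairs of TAZ-S89A libraries, replicates 1 and 2 and replicates 4 and 5, were summed. Without TAZ-S89A replicates 4 and 5 the log2 fold change of Kdr was -4.37 against -3.74. The defining markers Pecam1 and Cdh5 did not exceed a mean of 0.141 CPM in either group, and the part of such cells in the level of Eng was not tested.

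Among WNT genes, ligands and a receptor were found higher and a secreted antagonist lower. Over the whole list 18 of 39 tested were lower and 9 higher (49 listed, median -0.39). Wnt7b, a ligand of the canonical pathway in epithelia, stood at 104, 104, 101, 130 and 129 CPM in TAZ-S89A and 9.61, 9.63 and 6.94 CPM in YAP-S127A (log2 fold change 3.70, SE 0.19, adjusted p 2.94e-08). Wnt4, a ligand known from kidney and gonad development, stood at 14.8, 15.6, 19.5, 13.5 and 14.6 CPM in TAZ-S89A and 1.74, 2.14 and 1.66 CPM in YAP-S127A (log2 fold change 3.08, SE 0.18, adjusted p 1.13e-07). Lgr5, the R-spondin receptor that marks stem cells of several epithelia and is itself a WNT target, stood at 22.5, 20.1, 12.8, 13.5 and 11.5 CPM in TAZ-S89A and 0.0696, 0.0339 and 0.0281 CPM in YAP-S127A (log2 fold change 8.34, SE 0.44, adjusted p 4.03e-08), with 5 reads in all in YAP-S127A. Dkk2, a secreted WNT antagonist, stood at 1.55, 1.62, 1.36, 2.04 and 1.78 CPM in TAZ-S89A and 75.4, 79 and 77.3 CPM in YAP-S127A (log2 fold change -5.54, SE 0.14, adjusted p 3.36e-10).

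Notch genes were higher in 10 of 17 tested members (23 listed) and lower in 5, with a median of 0.59. Some abundant members went the other way. Jag1, a Notch ligand of bile duct development, stood at 57.6, 58.7, 41, 55 and 52.4 CPM in TAZ-S89A and 121, 119 and 108 CPM in YAP-S127A (log2 fold change -1.13, SE 0.14, adjusted p 4.11e-05), and Hes1, a repressor induced by Notch, at 17.8, 17.7, 20.9, 21.8 and 24.2 CPM in TAZ-S89A and 49.3, 46.5 and 48.6 CPM in YAP-S127A (log2 fold change -1.23, SE 0.13, adjusted p 1.12e-05). Both were lower in each TAZ-S89A library.

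Axon guidance ligands and receptors were higher in 29 of 52 tested members (60 listed) and lower in 14, with a median of 0.65. These secreted and membrane proteins steer growing neurites and also act between epithelial and vascular cells. Ntn1, netrin 1, stood at 26.4, 23.7, 23.5, 50.6 and 46.9 CPM in TAZ-S89A and 0.162, 0.237 and 0.337 CPM in YAP-S127A (log2 fold change 7.12, SE 0.45, adjusted p 1.81e-07). Unc5b, a netrin receptor, was lower at 71.9, 71.7, 63.5, 108 and 107 CPM in TAZ-S89A and 452, 445 and 390 CPM in YAP-S127A (log2 fold change -2.35, SE 0.21, adjusted p 2.96e-06). The ligand and its receptor therefore moved in opposite directions. Efna1, an ephrin bound by EphA receptors, stood at 82.7, 88.3, 122, 56.1 and 53.8 CPM in TAZ-S89A and 5.38, 5.7 and 6.41 CPM in YAP-S127A (log2 fold change 3.79, SE 0.30, adjusted p 1.02e-06). Sema3c, a secreted semaphorin, stood at 522, 514, 908, 424 and 417 CPM in TAZ-S89A and 126, 133 and 171 CPM in YAP-S127A (log2 fold change 1.96, SE 0.30, adjusted p 0.000198), with TAZ-S89A replicate 3 above the other libraries of its group.

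Several chemokines known to attract neutrophils and monocytes were higher in TAZ-S89A. Of 22 tested chemokine and receptor genes (43 listed), 12 were higher and 6 lower, with a median of 1.65. With all 11 libraries in the fit 26 were tested, 12 higher and 6 lower, with a median of 0.71. Ccl7 was not called, at means of 85.5 CPM in TAZ-S89A and 114 CPM in YAP-S127A. Cxcl5 and Cxcl1, ligands of the neutrophil receptor CXCR2, stood at 154, 176, 151, 171 and 188 CPM in TAZ-S89A and 4.15, 3.93 and 3.91 CPM in YAP-S127A (log2 fold change 5.39, SE 0.17, adjusted p 9.14e-10) and at 183, 199, 166, 130 and 138 CPM in TAZ-S89A and 11.1, 9.43 and 10.5 CPM in YAP-S127A (log2 fold change 3.98, SE 0.20, adjusted p 3.01e-08). Ccl2, which attracts monocytes, stood at 430, 482, 515, 367 and 370 CPM in TAZ-S89A and 92.1, 95.5 and 124 CPM in YAP-S127A (log2 fold change 2.06, SE 0.21, adjusted p 9.17e-06). Ccl9, another myeloid attractant of mice, stood at 927, 958, 871, 250 and 263 CPM in TAZ-S89A and 38.8, 39.4 and 43.9 CPM in YAP-S127A (log2 fold change 4.01, SE 0.55, adjusted p 8.64e-05). Its TAZ-S89A libraries formed separate levels, replicates 4 and 5 below the other three, and all lay above YAP-S127A. Cxcl12, the stromal ligand of CXCR4, was lower at 17.8, 18.3, 19.7, 36.9 and 33.2 CPM in TAZ-S89A and 124, 124 and 120 CPM in YAP-S127A (log2 fold change -2.29, SE 0.24, adjusted p 1.23e-05), while Ackr3, a scavenging receptor for it, was higher at 65.5, 73.4, 118, 76.9 and 72.3 CPM in TAZ-S89A and 22.8, 24 and 32.5 CPM in YAP-S127A (log2 fold change 1.62, SE 0.22, adjusted p 8.03e-05). Spp1, osteopontin, a secreted phosphoprotein that binds integrins and attracts macrophages, had nRPKM means of 1341 in TAZ-S89A and 161 in YAP-S127A. It stood at 3361, 3383, 3662, 1777 and 1918 CPM in TAZ-S89A and 297, 331 and 376 CPM in YAP-S127A (log2 fold change 3.07, SE 0.35, adjusted p 2.2e-05). Macrophage and monocyte markers summed to 39.3 to 51.4 CPM in TAZ-S89A and 27.9 to 31.7 CPM in YAP-S127A, and of 24 markers 9 were tested, 3 higher and 3 lower. The higher markers were Mrc1, at means of 9.52 CPM in TAZ-S89A and 0.502 CPM in YAP-S127A, Cd14 at 22.6 and 11.1 CPM and Mpeg1 at 2.19 and 0.635 CPM. The lower markers were Csf1r, at 1.88 and 7.82 CPM, Lyz2 and Aif1. Adgre1 and C1qc had no count in any of the 8 libraries, and Itgam, Tyrobp, C1qa, C1qb and Ctss did not exceed 4 reads over a group. The part of these markers' cells in the chemokine levels was not tested.

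Cytokines and their receptors did not lean as far, with 26 of 59 tested lower and 19 higher (71 listed, median -0.23). Tnfsf11, which encodes the osteoclast factor RANKL, had no count in TAZ-S89A and 10.1, 11.3 and 14.5 CPM in YAP-S127A, at least 653-fold lower. Its soluble decoy receptor Tnfrsf11b had no count in TAZ-S89A either and 2.23, 1.86 and 2.76 CPM in YAP-S127A (249 reads in all). Ligand and decoy were thus detected in the same group of lines. Tnfrsf9, the T cell costimulator also called 4-1BB, was higher at 19.7, 22.2, 24.1, 19.6 and 19 CPM in TAZ-S89A and 0.441, 0.339 and 0.169 CPM in YAP-S127A (log2 fold change 6.01, SE 0.26, adjusted p 8.03e-09).

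Interferon-stimulated genes were higher in 16 of 42 tested (52 listed) and lower in 12, with a median of 0.25. Gbp4, a guanylate-binding protein induced by interferon gamma, stood at 157, 160, 144, 91.1 and 90.5 CPM in TAZ-S89A and 1.25, 1.05 and 0.731 CPM in YAP-S127A (log2 fold change 6.98, SE 0.34, adjusted p 2.19e-08). Cgas, the sensor of cytosolic DNA, stood at 0.0957, 0.251, 0.0888, 0.347 and 0.577 CPM in TAZ-S89A and 23.2, 20.9 and 20.9 CPM in YAP-S127A (log2 fold change -6.45, SE 0.35, adjusted p 4.8e-08), and at a log2 fold change of -7.12 without TAZ-S89A replicates 4 and 5. Of 37 tested antigen presentation genes (42 listed), 17 were higher and 8 lower, with a median of 0.47.

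Integrins went both ways. Of 21 tested, 6 were higher and 8 lower (median -0.07). Itga3, which pairs with a beta chain to bind laminin, stood at 691, 649, 628, 936 and 917 CPM in TAZ-S89A and 255, 243 and 226 CPM in YAP-S127A (log2 fold change 1.66, SE 0.23, adjusted p 8.54e-05). Itgb7, a beta chain known from lymphocytes, stood at 46.5, 44.9, 52.8, 79.2 and 72.5 CPM in TAZ-S89A and 1.65, 2.07 and 1.32 CPM in YAP-S127A (log2 fold change 5.14, SE 0.28, adjusted p 5.72e-08). Itga11, a collagen receptor of fibroblasts, was lower at 0.359, 0.41, 0.118, 0.0868 and 0.0444 CPM in TAZ-S89A and 38, 40.1 and 32.2 CPM in YAP-S127A (log2 fold change -7.27, SE 0.34, adjusted p 1.64e-08), and Itga4, which binds fibronectin and VCAM1, had no count in TAZ-S89A and 6.75, 6.34 and 6.64 CPM in YAP-S127A, at least 363-fold lower.

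Cadherins were higher in 13 and lower in 10 of 24 tested (37 listed, median 0.52), and keratins higher in 5 and lower in 5 of 10 tested (19 listed). Cdh11, the cadherin of mesenchymal cells, stood at 1.05, 1.03, 1.69, 1.3 and 1.64 CPM in TAZ-S89A and 90.9, 97.7 and 128 CPM in YAP-S127A (log2 fold change -6.32, SE 0.21, adjusted p 1.09e-09). Krt7, a keratin of bile ducts and other simple epithelia, stood at 1.05, 1.03, 2.55, 1.74 and 0.932 CPM in TAZ-S89A and 97.6, 96.5 and 120 CPM in YAP-S127A (log2 fold change -6.17, SE 0.29, adjusted p 1.69e-08). Krt18, a keratin shared by hepatocytes and duct cells, was higher at 329, 341, 594, 447 and 452 CPM in TAZ-S89A and 158, 158 and 189 CPM in YAP-S127A (log2 fold change 1.36, SE 0.23, adjusted p 0.000492), and so was Krt80 at 53.9, 53.1, 50.3, 81.2 and 78.1 CPM in TAZ-S89A and 8.1, 7.63 and 6.35 CPM in YAP-S127A (log2 fold change 3.10, SE 0.22, adjusted p 4.54e-07). Pkp1, a desmosomal plakophilin of stratified epithelia, stood at 26.1, 27.5, 23.2, 25.3 and 26.2 CPM in TAZ-S89A and 0.418, 0.373 and 0.281 CPM in YAP-S127A (log2 fold change 6.14, SE 0.19, adjusted p 6.53e-10). Keratins went both ways, and neither direction was shared by all members. Krt8 and Krt19 were lower, Krt8 at means of 7.05 CPM in TAZ-S89A and 32.8 CPM in YAP-S127A and Krt19 at 7.69 and 57.5 CPM. Biliary and progenitor markers, to which Krt7 and Spp1 belong, were higher in 5 and lower in 5 of 13 tested.

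Transcription factors of mesenchyme were lower on balance. In the list of EMT and mesenchymal factors 14 of 25 tested were lower and 7 higher (32 listed, median -0.88). Prrx1, a homeobox factor of limb and fibroblast mesenchyme, stood at 0.215, 0.0456, 0.385, 0.13 and 0.0888 CPM in TAZ-S89A and 279, 282 and 300 CPM in YAP-S127A (log2 fold change -10.64, SE 0.36, adjusted p 1.41e-09). Osr1, a zinc finger factor of intermediate mesoderm, stood at 0.407, 0.319, 0.563, 0.521 and 0.355 CPM in TAZ-S89A and 36.4, 37.8 and 33.5 CPM in YAP-S127A (log2 fold change -6.38, SE 0.18, adjusted p 4.28e-10). Snai2, which represses E-cadherin, had 2.99, 4.1, 4.53, 8.33 and 9.63 CPM in TAZ-S89A and 33.5, 32.2 and 36.4 CPM in YAP-S127A (log2 fold change -2.55, SE 0.32, adjusted p 4.38e-05). Zeb1, another repressor of E-cadherin, was higher, at 63.3, 58.1, 41.6, 65.1 and 67.4 CPM in TAZ-S89A and 39.6, 40.7 and 36.8 CPM in YAP-S127A (log2 fold change 0.60, SE 0.16, adjusted p 0.0089). The factors of this list therefore did not share a direction. Outside HOX, 36 of 69 tested developmental factors were lower and 18 higher (105 listed, median -0.51). Sox11, a factor of embryonic progenitors, was higher at 87.3, 92.5, 67.3, 103 and 105 CPM in TAZ-S89A and 5.11, 4.27 and 3.94 CPM in YAP-S127A (log2 fold change 4.35, SE 0.20, adjusted p 1.57e-08), and Pax8, a factor of kidney and thyroid, stood at 7.6, 6.54, 5.24, 2.82 and 3.28 CPM in TAZ-S89A with no count in YAP-S127A, at least 201-fold higher.

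HOX genes encode homeobox factors that set position along the body axis and lie in 4 clusters. Of 39 in the files 26 were tested, 24 were lower in TAZ-S89A and none was higher, with a median of -7.08, or -6.15 with 5 genes that had no TAZ-S89A count set at their bound. Over Hoxb the groups held 43 and 3850 reads, over Hoxc 10 and 4165, and over Hoxd 7 and 661, for TAZ-S89A and YAP-S127A in that order. Reads of these 3 clusters were thus almost all from YAP-S127A. Hoxc6, a factor of the thoracic region, stood at 0.0717, 0, 0.0296, 0.13 and 0.0444 CPM in TAZ-S89A and 32.3, 27.3 and 22.2 CPM in YAP-S127A (log2 fold change -9.02, SE 0.35, adjusted p 3.21e-09). Hoxa3 and Hoxa4, which overlap in the annotation, were the tested members not called (adjusted p 0.0923 and 0.421, edgeR). Both were read in either group, Hoxa3 at means of 1.96 CPM in TAZ-S89A and 2.51 CPM in YAP-S127A and Hoxa4 at 0.682 and 0.507 CPM, so the near absence of the other clusters from TAZ-S89A did not extend to them. Counts of neighbouring HOX genes can share reads, since the strand setting is not known.

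Imprinted genes are expressed from 1 parental copy. Of 43 tested (53 listed), 28 were lower and 8 higher, with a median of -2.76. The 14 on chromosome 7, which hold the Peg3, Snrpn and H19 domains, gave 13 lower and none higher (median -4.18), and the 29 on other chromosomes gave 15 lower and 8 higher (median -0.58). Of all 1193 tested genes on chromosome 7, 60.3% were lower and 8.21% higher (median -0.69). Meg3, the noncoding RNA of a domain on chromosome 12, had 0.0717, 0.114, 0.267, 0 and 0 CPM in TAZ-S89A and 119, 116 and 103 CPM in YAP-S127A (log2 fold change -10.06, SE 0.38, adjusted p 2.81e-09), and a log2 fold change of -10.78 without TAZ-S89A replicate 3. Peg3, a paternally expressed zinc finger gene, stood at 1.75, 1.57, 1.63, 2.65 and 1.69 CPM in TAZ-S89A and 484, 461 and 415 CPM in YAP-S127A (log2 fold change -7.94, SE 0.22, adjusted p 4.05e-10). H19, a maternally expressed noncoding RNA of fetal liver, had no count in TAZ-S89A and 3.3, 3.87 and 3.4 CPM in YAP-S127A, at least 192-fold lower. Igf2r, the receptor that clears IGF2, stood at 2.22, 2.46, 1.66, 3.17 and 2.4 CPM in TAZ-S89A and 71.2, 67.1 and 58.9 CPM in YAP-S127A (log2 fold change -4.80, SE 0.18, adjusted p 2.84e-09), and Grb10, an adaptor that restrains insulin signalling, at 14.3, 13.2, 12.9, 20.4 and 18.4 CPM in TAZ-S89A and 157, 155 and 140 CPM in YAP-S127A (log2 fold change -3.25, SE 0.17, adjusted p 3.81e-08). The imprinted genes that were higher differed less or were low: Asb4 and Nap1l5 stayed at or below 2.55 CPM in every library, and Gab1 stood at 35.3, 36.3, 27.9, 39.1 and 38.1 CPM in TAZ-S89A and 26.1, 25.1 and 21.6 CPM in YAP-S127A (log2 fold change 0.54, SE 0.14, adjusted p 0.00679).

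**Figure D4:**
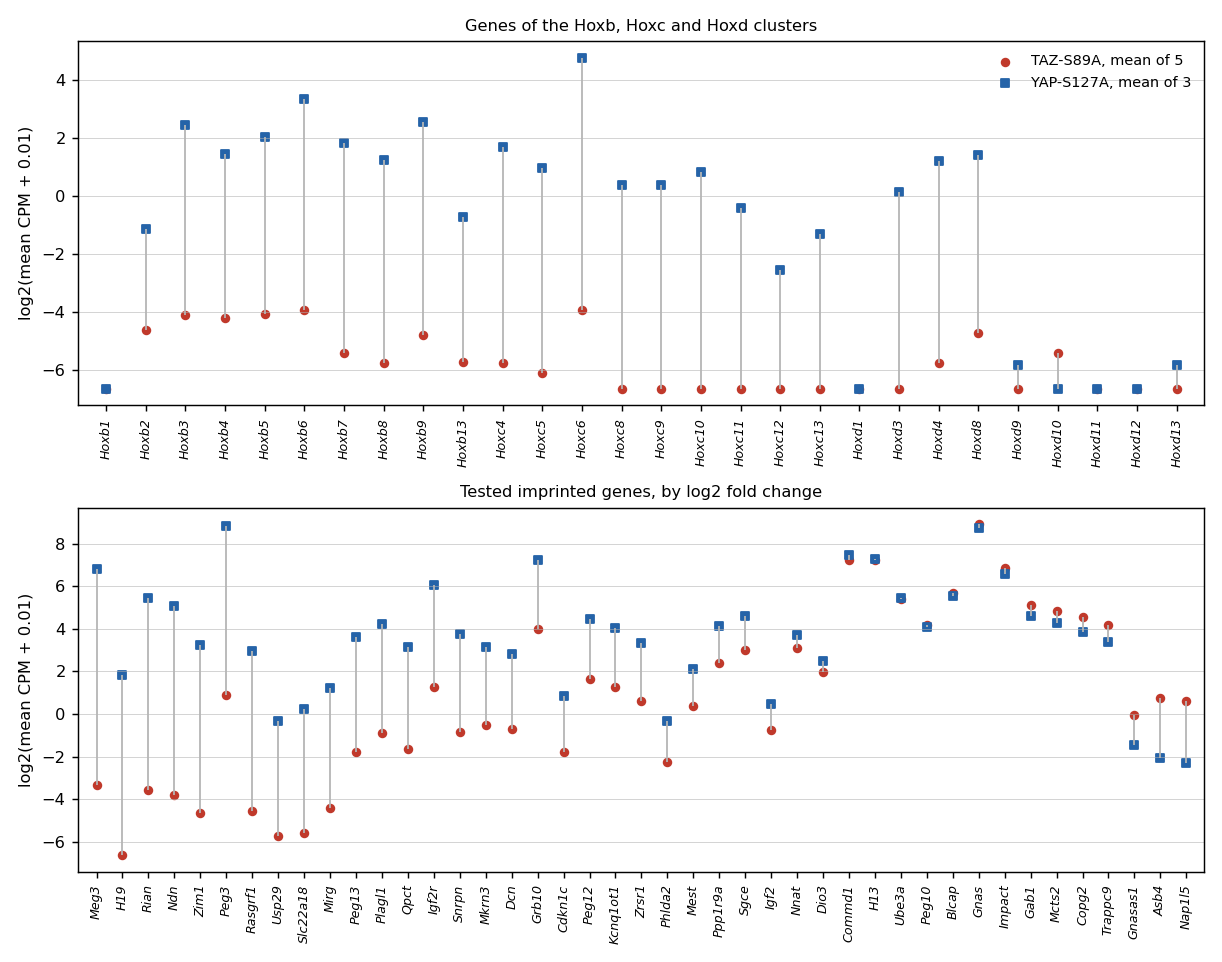
Mean level of genes of the Hoxb, Hoxc and Hoxd clusters (upper panel) and of tested imprinted genes (lower panel, ordered by log2 fold change) in TAZ-S89A (red circles, mean of 5 libraries) and YAP-S127A (blue squares, mean of 3), as log2 of mean CPM plus 0.01. In the upper panel every tested gene stands lower in TAZ-S89A, and Hoxd10, not tested, stands higher there with 2 reads against 0; in the lower panel the gap closes toward the right and opens again at the end, where Gnasas1, Asb4 and Nap1l5 stand higher in TAZ-S89A.

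Lipid genes were higher in 30 of 54 tested (67 listed) and lower in 10 (median 0.56), and sterol genes higher in 18 of 38 and lower in 5 (39 listed, median 0.42). Sqle, squalene epoxidase of cholesterol synthesis, stood at 115, 119, 148, 174 and 174 CPM in TAZ-S89A and 38.4, 38.7 and 41.5 CPM in YAP-S127A (log2 fold change 1.89, SE 0.19, adjusted p 6.78e-06). Plin4, a coat protein of lipid droplets, stood at 71.5, 63.8, 40.8, 32.6 and 32.2 CPM in TAZ-S89A and 3.48, 2.64 and 1.97 CPM in YAP-S127A (log2 fold change 4.15, SE 0.36, adjusted p 2.27e-06). The opposite was seen for Scd1, the stearoyl-CoA desaturase that makes oleate, which stood at 0.359, 0.251, 0.444, 0.608 and 0.311 CPM in TAZ-S89A and 271, 275 and 252 CPM in YAP-S127A (log2 fold change -9.43, SE 0.23, adjusted p 3.32e-10). Abca1, which exports cholesterol to apolipoproteins, stood at 1.29, 1.05, 0.888, 1.43 and 1.11 CPM in TAZ-S89A and 65.7, 68.4 and 62.8 CPM in YAP-S127A (log2 fold change -5.84, SE 0.16, adjusted p 4.05e-10). A synthesis gene was thus higher and an export gene lower in TAZ-S89A.

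Genes of oxidant defence and iron storage were higher in 24 of 49 tested (54 listed) and lower in 13, with a median of 0.50. Fth1, the ferritin heavy chain, had nRPKM means of 1107 in TAZ-S89A and 310 in YAP-S127A. It stood at 1541, 1874, 2241, 2351 and 2537 CPM in TAZ-S89A and 540, 581 and 644 CPM in YAP-S127A (log2 fold change 1.84, SE 0.26, adjusted p 0.000113). Mgst1, a membrane glutathione transferase, stood at 80.7, 86.8, 77.4, 67.6 and 70.3 CPM in TAZ-S89A and 3.71, 4.44 and 6.92 CPM in YAP-S127A (log2 fold change 3.93, SE 0.23, adjusted p 7.77e-08). Lamp1, a lysosomal membrane protein outside that list, stood at 547, 556, 802, 827 and 824 CPM in TAZ-S89A and 240, 254 and 273 CPM in YAP-S127A (log2 fold change 1.48, SE 0.23, adjusted p 0.000247). Among xenobiotic and retinoid enzymes, 23 of 58 tested were lower and 16 higher (73 listed, median -0.11), and Sult1c2, a sulfotransferase, stood at 83.3, 99.3, 106, 49.2 and 52.2 CPM in TAZ-S89A and 0.0696, 0.136 and 0.0843 CPM in YAP-S127A (log2 fold change 9.66, SE 0.47, adjusted p 2.14e-08).

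Genes of glycolysis and hypoxia did not lean (13 higher and 14 lower of 49 tested, 55 listed, median 0.16). Within the list Ndrg1, a gene induced by hypoxia, stood at 178, 170, 196, 186 and 177 CPM in TAZ-S89A and 8.49, 8.41 and 9.47 CPM in YAP-S127A (log2 fold change 4.36, SE 0.16, adjusted p 2.06e-09), and Slc2a3, the glucose transporter GLUT3, at 0.0478, 0, 0.0592, 0.0434 and 0 CPM in TAZ-S89A and 23.7, 23.3 and 18.5 CPM in YAP-S127A (log2 fold change -9.33, SE 0.33, adjusted p 1.87e-09). The integrated stress response and the unfolded protein response were lower in 27 of 54 tested and higher in 8 (median -0.67). Nupr1, a stress-induced chromatin protein, stood at 14.2, 16.6, 15.9, 12.7 and 11.7 CPM in TAZ-S89A and 94.2, 103 and 105 CPM in YAP-S127A (log2 fold change -2.82, SE 0.14, adjusted p 2.33e-08), and Aldh1l2, a mitochondrial folate enzyme induced by ATF4, at 0.67, 1.09, 0.385, 1.17 and 0.666 CPM in TAZ-S89A and 149, 152 and 141 CPM in YAP-S127A (log2 fold change -7.53, SE 0.27, adjusted p 1.93e-09).

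Replication and division genes were higher by small amounts. DNA replication genes were higher in 27 of 53 tested and lower in 4 (median 0.56), and mitosis genes higher in 27 of 55 and lower in 1 (median 0.39), or 26 and 5 without TAZ-S89A replicates 4 and 5. Mcm5, part of the replicative helicase, stood at 121, 120, 198, 184 and 181 CPM in TAZ-S89A and 61.3, 62.7 and 68.3 CPM in YAP-S127A (log2 fold change 1.32, SE 0.21, adjusted p 0.000241). Chaf1b, a histone chaperone subunit, stood at 56.8, 55.6, 82.9, 77.4 and 76.2 CPM in TAZ-S89A and 22.7, 23 and 22 CPM in YAP-S127A (log2 fold change 1.63, SE 0.17, adjusted p 9.69e-06), and Ect2, an exchange factor of cytokinesis, at 120, 132, 244, 209 and 208 CPM in TAZ-S89A and 68.5, 68.7 and 92.2 CPM in YAP-S127A (log2 fold change 1.25, SE 0.26, adjusted p 0.00159). Ccnd2, which encodes the G1 cyclin D2, stood at 86.8, 88.7, 89.7, 112 and 111 CPM in TAZ-S89A and 1025, 1046 and 905 CPM in YAP-S127A (log2 fold change -3.35, SE 0.19, adjusted p 5.47e-08), and Cdkn2b, which encodes the CDK4 inhibitor p15, at 79.2, 89, 121, 63.5 and 62 CPM in TAZ-S89A and 6.99, 6.17 and 7.56 CPM in YAP-S127A (log2 fold change 3.59, SE 0.25, adjusted p 4.43e-07).

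Channels and membrane receptors held some of the sharpest contrasts. Of 44 tested voltage-gated and mechanosensitive channels (86 listed), 21 were lower and 14 higher (median -0.50). Scn3a, a neuronal sodium channel, stood at 8.2, 6.52, 6.28, 15.9 and 15.6 CPM in TAZ-S89A with no count in YAP-S127A, at least 340-fold higher. Bdkrb2, the bradykinin B2 receptor, stood at 20.9, 19.4, 18.1, 45.7 and 42.9 CPM in TAZ-S89A and 0.255, 0.17 and 0.281 CPM in YAP-S127A (log2 fold change 6.91, SE 0.51, adjusted p 6.21e-07), and Aqp5, a water channel of glands, at 25.9, 32.8, 42.7, 25.6 and 25.7 CPM in TAZ-S89A and 0.0928, 0.102 and 0.112 CPM in YAP-S127A (log2 fold change 8.18, SE 0.33, adjusted p 4.37e-09). For lipid mediator and purine genes the count depended on chromosome: 25 of 53 tested were lower and 18 higher (75 listed, median -0.61), but outside chromosomes 7, 9 and 14 the 43 tested gave 17 lower and 18 higher (median 0.15).

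Presence and absence was asymmetric. Genes with at most 3 reads over TAZ-S89A and a mean of at least 5 CPM in YAP-S127A numbered 50, and those with at most 3 reads over YAP-S127A and at least 5 CPM in TAZ-S89A numbered 11. No reads at all were found for 13 of the 50 in TAZ-S89A and for 4 of the 11 in YAP-S127A. The 4 were Sprr1b, Scn3a, Pax8 and Serpina7, the last of which encodes thyroxine-binding globulin. Serpina7 stood at 18, 17.4, 15.1, 1.91 and 2.62 CPM in TAZ-S89A, at least 465-fold higher, so its level differed within the group, and its fitted log2 fold change was 12.33 without replicates 4 and 5 against 11.57 with them. The 13 included Rem1, Tnfsf11, Itga4, Mir214, Tmem100, a target of BMP signalling in endothelium (at least 577-fold), Fez1, a kinesin adaptor of neurons (at least 430-fold), and Emcn, an endothelial sialomucin (at least 429-fold). These bounds cover counting error only.

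The size of the difference varied along the genome. The median log2 fold change was -0.69 on chromosome 7, where 60.3% of 1193 tested genes were lower and 8.21% higher, and -0.65 on chromosome 9, where 59.9% of 872 were lower. It was -0.53 on chromosome 14 and 0.33 on chromosome 15, where 41.9% of 668 genes were higher. Each TAZ-S89A library showed the shift against the mean of YAP-S127A, from -0.72 to -0.65 on chromosome 7 and from -0.71 to -0.65 on chromosome 9. Windows of 50 tested genes differed along chromosome 14: the 3 windows up to position 34310651 had medians of 0.16, 0.27 and 0.32, and the 7 windows from 34310727 on lay between -1.01 and -0.64. These positions are window edges set by gene count. The medians place the change no more finely than the span of the adjoining windows, 28504543 to 49094114. On chromosome 15 the 5 windows from 56689944 to 82142203 had medians of 0.38 to 0.79, while the first windows lay at -0.07. Yap1 lies on chromosome 9, and Tnfsf11, Bmp4 and Loxl2 lie on chromosome 14. DNA copy number was not measured, and its part in these medians was not tested. Outside chromosomes 7, 9 and 14, 14832 genes were tested, 4511 were higher and 3666 lower (median 0.10). Those chromosomes were left out after their medians were seen to be the lowest, so the balance had to shift toward higher levels. The list values outside them are therefore a description only. The matrix list kept its lean there, with 27 of 46 members lower and 11 higher (median -1.53). Other lists leaned less there: imprinted genes were lower in 14 and higher in 8 of 28 (median -0.56), and the medians of oncofetal genes and p53 targets were -0.45 and -0.40. The median turned to 0.11 for cytokines, 0.18 for integrins, 0.15 for lipid mediator and purine genes, 0.11 for the Hippo genes set aside and -0.56 for cornified envelope genes.

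**Figure D5:**
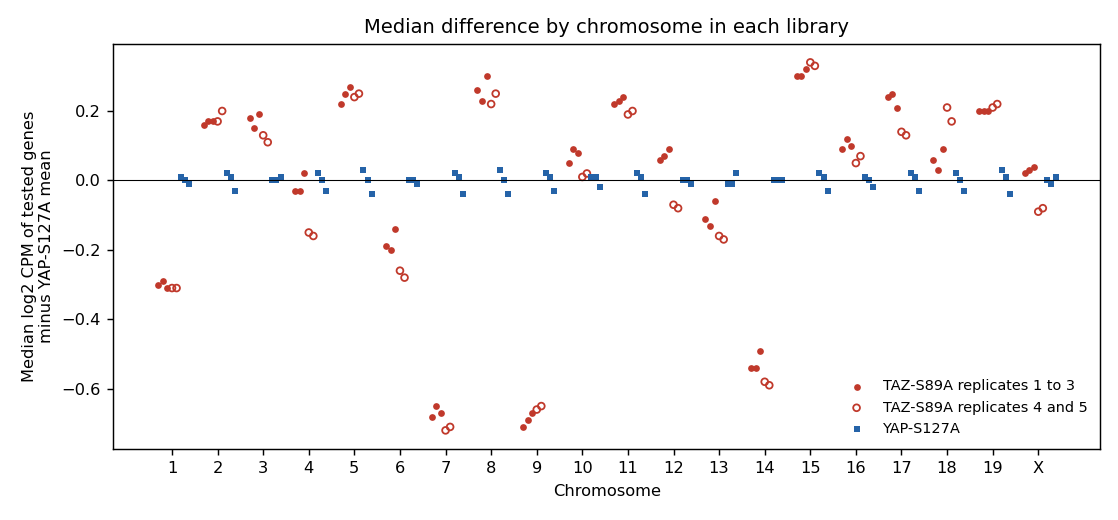
Median over tested genes of log2 CPM minus the YAP-S127A mean, by chromosome, in each TAZ-S89A library (red circles, open for replicates 4 and 5) and each YAP-S127A library (blue squares). Chromosomes 7, 9 and 14 lie lowest in all 5 TAZ-S89A libraries and chromosome 15 highest.

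TAZ-S89A replicates 4 and 5 stood apart from replicates 1 to 3 in a way tied to gene length. The median log2 gap between them was -0.36 over the shortest 4356 gene models tested and 0.21 over the longest 4356. Ribosomal protein genes, which are short and highly expressed, took 2.61% to 2.95% of CPM in replicates 1 to 3, 1.13% to 1.22% in replicates 4 and 5, and 4.08% to 4.47% in YAP-S127A. Of 77 tested, 3 were higher and 18 lower (median -0.28), and without replicates 4 and 5 it was 19 higher and 21 lower (median -0.03). Genes named above whose TAZ-S89A libraries form separate levels include Ccl9, Ddr2, Tagln, Spry4, Cgas, Serpina7, Scn3a, Bdkrb2, Ntn1, Spp1 and Tmsb4x. Each of these stayed on the same side of YAP-S127A in every library.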

How the data were processed

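PolyA RNA was extracted with a Qiagen RNeasy kit, per the labels' protocols. The authors aligned reads with GSNAP to GRCm38, per the submitters' processing notes. For the aligner's version, the counting tool, the annotation and the use of strand, the settings were not given in the sources used here. Each deposited table holds a read count per gene model and an RPKM scaled by a library size factor (nRPKM), per the file headers. Replicates were numbered in accession order. RefSeq symbols of GRCm38 matched 31049 of 36528 gene IDs, and the other 5479 IDs, with 3.04% of counts, were kept in library totals. Totals ran from 20071144 to 46243462, and floors cover counting error only. Intervals of fold changes come from the quasi-likelihood fit described below and include the spread among libraries.

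Counts of the 8 libraries were tested with edgeR 4.0.16 in R 4.3.3: filterByExpr kept 17423 genes, libraries were scaled by TMM, and a quasi-likelihood fit with robust dispersion had the group as its only term. Benjamini-Hochberg adjustment covered all genes tested, and calls were made under 0.05. SE is the size of the log2 fold change divided by the root of F. Each gene list was described by counts and a median. Scripts were tested on simulated counts with known changes. Alternatives were DESeq2 1.42.0, limma-voom (limma 3.58.1), upper-quartile or RLE factors, other low-count filters, all 11 libraries, the ID series left out or as a covariate, close library pairs summed, glmTreat, and leaving out each library. Counts outside chromosomes 7, 9 and 14, and the ribosomal protein genes, were added after the data were seen. A check of promoter base composition was void, since fewer than 80% of the genes on in 1 group had a promoter window.

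Genes were named by a rule: the 15 highest and 15 lowest called log2 fold changes (no overlap of libraries, no predicted models, average log2 CPM 2 or more), the 8 largest differences in nRPKM each way, up to 5 called members per list with at least 5 CPM and the 2 most abundant members, Yap1 and Wwtr1, and the 6 largest gaps between ID series. Hippo, collagen and hepatocyte genes were set aside, and the genes printed are a selection from those the rule allows. Ackr3, Aif1, Asb4, Bmp4, Ccl7, Cxcl12, Cygb, Dusp6, Egfr, Fez1, Fgfr1, Gab1, Gli1, Gnasas1, Grb10, H19, Hes1, Hoxa3, Hoxa4, Igf1r, Igf2r, Jag1, Kdr, Loxl2, Ltbp2, Lyz2, Met, Mir199a-2, Mir214, Mpeg1, Nap1l5, Plvap, Reln, Thy1, Tnfrsf11b, Tyro3, Unc5b and Zeb1 were chosen after their values were seen, as were single markers given by reads or means. The members of the comparison and the 52 lists were chosen with earlier results of these data known. Genes that overlap another tested gene, whose reads may be shared, include Aqp5, Bmp4, Cadm2, Ccnd2, Cd34, Cdkn2b, Cygb, Ddr2, Dusp6, Eng, Fgfr1, Fstl3, Gas6, Gli1, Gnasas1, Grb10, Igf2r, Itga4, Krt80, Lama5, Loxl2, Ltbp2, Meg3, Nap1l5, Pax8, Pdgfra, Peg3, Plin4, Plvap, Stab1, Tagln, Tapbp, Timp3, Tpm2, Wnt7b and Zeb1.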

Additional observations from a re-analysis of the deposited data

Results flagged for a closer look

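For 119 of the genes named and read at 50 counts or more in TAZ-S89A, the 5 libraries of that group were searched for a library far from the others, and 4 had one. Chance flags about 1 in 20 groups. Ackr3 stood at 118 CPM in TAZ-S89A replicate 3, against 65.5 to 76.9 CPM in the others of that group. Csf1r stood at 2.39 CPM in TAZ-S89A replicate 1, against 1.69 to 1.82 CPM in the others of that group. Peg3 stood at 2.65 CPM in TAZ-S89A replicate 4, against 1.57 to 1.75 CPM in the others of that group. Sema3c stood at 908 CPM in TAZ-S89A replicate 3, against 417 to 522 CPM in the others of that group. The direction of each gene against YAP-S127A was the same with that library left out, and the causes were not tested.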

How the results depend on the processing

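Calls numbered 7211 to 11381 over alternatives other than glmTreat, and 8241 to 10585 when each library was left out. Tested against a log2 fold change of 1 (glmTreat), 3672 genes were called, 1359 higher and 2313 lower, and of gene list members 680 were called against 1182. With a log2 fold change of at least 1 the strict low-count filter left 3165 genes of 13168 tested, and glmTreat 3672. The share of calls that were higher was 45.5% to 49.1% over the other alternatives and 37% under glmTreat. Genes on in TAZ-S89A only numbered 4 with 0 counts required in the other group and 43 with a mean of at least 1 CPM, and genes on in YAP-S127A only 13 and 213; leaving out each library gave 9 to 15 and 50 to 66. The median of chromosome 7 was -0.65 without the second ID series. Of 144 called genes named and followed through the alternatives, 1, Plvap, changed a call outside glmTreat, under which 17 lost theirs. Hoxa4, which was not called, reversed to -0.01 with the ID series as a covariate. No paired analysis was possible because the labels carry no replicate numbers. The promoter alternative was not run, since the check was void. Depth and spread limit what is not called: 1797 of 7494 uncalled genes had an interval reaching 1 on the log2 scale.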

Other observations

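Genes of apoptotic cell clearance differed strongly at a few steps while the list as a whole did not lean (9 higher and 12 lower of 34 tested, 38 listed, median -0.18). Gulp1, an adaptor of engulfment receptors, stood at 0.0717, 0.0684, 0, 0 and 0.0444 CPM in TAZ-S89A and 72.6, 72 and 94.1 CPM in YAP-S127A (log2 fold change -10.76, SE 0.31, adjusted p 5.22e-10). Gas6, the bridging ligand of Mertk and its relatives, had 17 reads over TAZ-S89A and 683 over YAP-S127A (log2 fold change -5.88, SE 0.30, adjusted p 2.67e-08). This ligand and Mertk were thus both lower. Of the relatives of Mertk, Axl stood at means of 482 CPM in TAZ-S89A and 1077 CPM in YAP-S127A and was lower (log2 fold change -1.16). Tyro3, at 26.7 and 27 CPM, was not called. Complement and coagulation genes were lower in 16 and higher in 9 of 31 tested (50 listed, median -0.81). Tfpi, the inhibitor of tissue factor, stood at 0.646, 0.798, 0.711, 0.391 and 0.355 CPM in TAZ-S89A and 104, 114 and 131 CPM in YAP-S127A (log2 fold change -7.57, SE 0.22, adjusted p 5.27e-10), and C1s1, a protease of the classical complement pathway, was higher at 29.2, 31.4, 18.6, 27.9 and 27.6 CPM in TAZ-S89A and 1.09, 1.09 and 1.32 CPM in YAP-S127A (log2 fold change 4.52, SE 0.22, adjusted p 2.25e-08). Neuronal and synaptic adhesion genes were lower in 25 and higher in 12 of 46 tested (93 listed, median -0.67), among them Nrcam, a neuronal cell adhesion molecule (log2 fold change -6.11, SE 0.28, adjusted p 1.31e-08), and Cadm2, a synaptic one (log2 fold change -6.36, SE 0.20, adjusted p 7.86e-10). In the epithelial junction list, 13 were higher and 15 lower of 38 tested (51 listed, median 0.10). Dsp, desmoplakin, had 64 reads over TAZ-S89A and 1808 over YAP-S127A (log2 fold change -5.39, SE 0.26, adjusted p 1.69e-08), while Pkp1 of the same junction was higher. Lsr, a tricellular junction receptor, was lower (log2 fold change -4.10, SE 0.18, adjusted p 7.72e-09).

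Oncofetal genes were lower in 14 and higher in 4 of 22 tested (30 listed, median -1.39), or in 9 and 4 of 17 (median -0.45) outside chromosomes 7, 9 and 14. Trim71, a target of let-7 in embryonic cells, had 23 reads over TAZ-S89A and 1771 over YAP-S127A (log2 fold change -6.80, SE 0.24, adjusted p 1.69e-09), and Arid3a, a fetal DNA-binding factor, was also lower (log2 fold change -3.20, SE 0.15, adjusted p 1.57e-08). p53 targets and CDK inhibitors were lower in 24 and higher in 6 of 39 tested (40 listed, median -0.91), or in 16 and 6 of 31 (median -0.40) outside those chromosomes. Polycomb and DNA methylation genes did not lean to lower levels (13 higher and 9 lower of 46 tested, 48 listed, median 0.09). Among them Hells, a helicase needed for DNA methylation, stood at 100, 99.1, 132, 135 and 135 CPM in TAZ-S89A and 48.2, 46.3 and 52.7 CPM in YAP-S127A (log2 fold change 1.29, SE 0.16, adjusted p 4.65e-05). Phf19, a polycomb accessory subunit, was lower (log2 fold change -2.78, SE 0.29, adjusted p 9.97e-06), and so was Zfp57, which keeps imprints methylated, at 132, 136, 90, 117 and 116 CPM in TAZ-S89A and 368, 357 and 321 CPM in YAP-S127A (log2 fold change -1.56, SE 0.17, adjusted p 1.31e-05). In antigen presentation Tapbp, tapasin, which loads peptides on MHC class I, was higher at 88.9, 85.1, 106, 130 and 123 CPM in TAZ-S89A and 22.1, 21.4 and 21.8 CPM in YAP-S127A (log2 fold change 2.29, SE 0.18, adjusted p 9.91e-07), and Psmb8, an immunoproteasome subunit, was lower (log2 fold change -2.83, SE 0.22, adjusted p 9.89e-07). Placental genes were higher in 6 and lower in 3 of 10 tested (26 listed, median 1.47), and in 6 and 5 of 13 (median 0.69) with all 11 libraries in the fit. They included Prl2c2 and Prl2c3, near-identical proliferin genes whose reads cannot be assigned with certainty, at log2 fold changes of 2.66 and 1.97 (SE 0.24 and 0.28). Of 9 tested mesothelial markers 6 were lower and 1 higher, and the list summed to 1057 to 1799 CPM in TAZ-S89A and 829 to 858 CPM in YAP-S127A. Msln, the higher marker, made up most of these sums, at means of 1411 CPM in TAZ-S89A and 764 CPM in YAP-S127A (log2 fold change 0.88). Transporters (19 higher and 18 lower of 47 tested), cornified envelope genes (4 and 4 of 10), germline genes (2 and 5 of 12) and lymphocyte and erythroid markers (1 and 1 of 2) gave no lean that stood clear of the shares over all genes.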
